A study of Mus musculus with 17 samples.

Results

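The comparison set IgM+CD138+ cells against B220+CD23+ cells from mouse spleen, in both genotypes of the study, with equal replicate numbers within a genotype taken as 1 mouse. It used 12 of the 17 arrays of the series, 6 of each population, chosen by their labelled cell type. All mice were LDL-R KO animals, a background lacking the LDL receptor and prone to atherosclerosis, and all had eaten a high cholesterol diet for 12 weeks. Control mice carried the LDL-R KO alone, and the other genotype was c-myb h/h LDL-R KO, which the labels do not describe further. Each genotype gave 3 arrays of IgM+CD138+ cells and 3 of B220+CD23+ cells, from mice described as separate animals. Cells were sorted by surface markers after lysis of red cells, and no age, sex or strain is given in the labels. The remaining 5 arrays, of B220+CD23-IgM+ cells (2 control, 3 c-myb h/h), entered no test here and are given as a further level beside the results.

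CD138, the product of Sdc1, is a surface proteoglycan gained as B cells become antibody-secreting plasmablasts and plasma cells. CD23, the low-affinity IgE receptor encoded by Fcer2a, marks mature follicular B cells, and B220 is a B cell form of the phosphatase CD45 encoded by Ptprc. As a B cell turns into a plasma cell, the factors encoded by Prdm1 and Xbp1 replace the B cell programme kept by Pax5, and the cell enlarges its endoplasmic reticulum to secrete immunoglobulin.

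The deposited table pairs each row with a probe identifier, but the values do not stand at the rows of their own probes. Across the 12 arrays, rows paired with 302 names of families used by nearly every cell read 0.18 log2 lower on average than rows paired with 1613 names of tissue-restricted families, a signed difference of -0.18. When the names were moved towards the start of the list, by 0 rows at the top and steadily more down to 370 rows at the bottom, this difference was 2.17. Displacements more than 100 rows from that one gave at most 0.42. Results are therefore given by the listed row number and its listed probe identifier, and no row is given a gene name. Where gene names appear, they describe the neighbourhood to which a name moves under a stepwise alignment. That alignment was fitted to the levels of the 5 B220+CD23-IgM+ arrays, starting from the displacement of 370 rows found on the 12 arrays. That start used levels averaged over the 12 arrays, so the population difference itself did not enter.

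IgM+CD138+ cells differed from B220+CD23+ cells in more than 1 row in 2. Of 19029 rows tested with both genotypes in the fit, 10512 passed (limma, Benjamini-Hochberg adjusted p under 0.05), or 55.2%. Of these, 4500 rows were higher in IgM+CD138+ cells (23.6%) and 6012 lower (31.6%). Lower rows were the more numerous and higher rows the larger in size: with a change of at least 1.5-fold required, 2505 rows passed, 1485 higher and 1020 lower. By at least 4-fold, 470 called rows were higher (2.47%) and 124 lower (0.652%), and by at least 16-fold 80 were higher and 0 lower. The extremes were 6.21 and -3.29 log2, and the median over all tested rows was -0.08. All 6 IgM+CD138+ arrays lay above all 6 B220+CD23+ arrays at 2992 rows (15.7%) and below them at 3530 (18.6%). Of the 594 rows past 4-fold, 591 moved the same way in 6 of 6 mice, against 9119 of all 19029 tested rows. The populations did not overlap at 580 of the 594. These rows were picked by size in the same arrays, so both counts were largely set by that choice. In bulk samples, fewer cells of a type and less RNA per cell cannot be told apart, and this holds for every difference below.

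**Figure D1:**
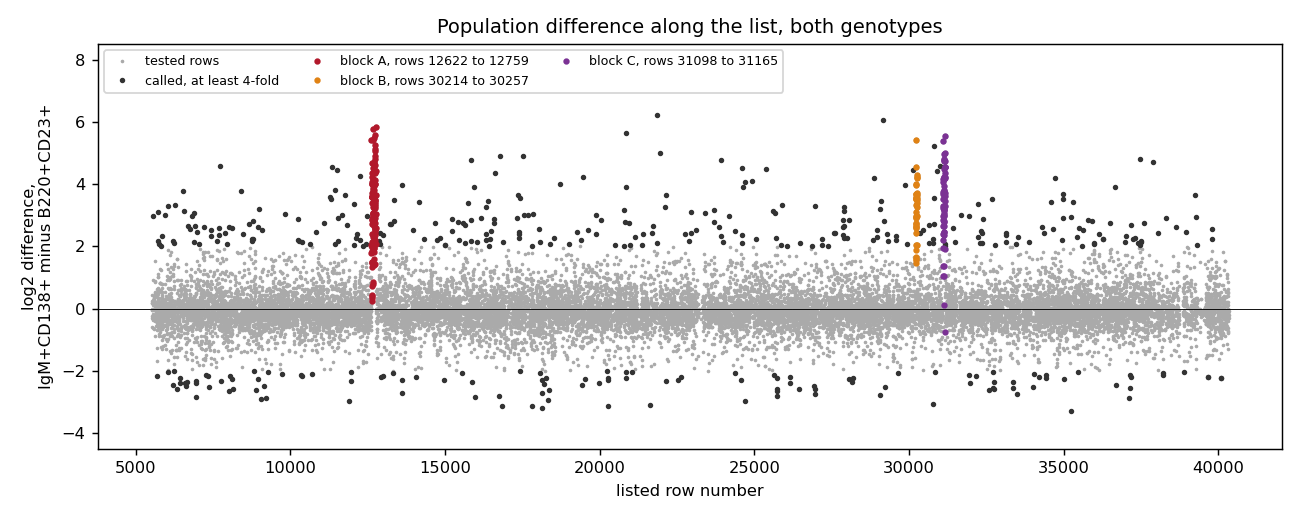
Difference between IgM+CD138+ and B220+CD23+ cells (log2, vertical axis) at every tested row against the listed row number (horizontal axis). Black points are called rows past 4-fold and coloured points are all tested rows of blocks A to C, whose differences stand together in narrow stretches while other large differences are scattered.

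The row with the largest difference was row 21843 (probe identifier 17370794). It read 11.25, 11.69 and 11.70 in control IgM+CD138+ cells and 11.85, 11.84 and 12.01 in c-myb h/h IgM+CD138+ cells, against 5.68, 4.85 and 4.70 in control and 6.78, 5.53 and 5.56 in c-myb h/h B220+CD23+ arrays. The groups stood far apart, and the lowest IgM+CD138+ array was above the highest B220+CD23+ array by several log2 units. The difference was 6.21 ± 0.23 log2 (SE; limma adjusted p = 8.02e-10). In B220+CD23-IgM+ cells the row read 5.21 and 5.19 in control mice and 7.69, 5.78 and 6.05 in c-myb h/h animals, so that population lay with B220+CD23+ cells.

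Row 29168 (17446616) was the next largest and lay outside the blocks too. It read 12.59, 12.78 and 12.87 in control and 12.73, 12.85 and 12.84 in c-myb h/h IgM+CD138+ cells, and 6.97, 4.85 and 6.23 in control and 7.55, 7.23 and 7.52 in c-myb h/h B220+CD23+ arrays. All IgM+CD138+ arrays were near one level, and the spread lay in the B220+CD23+ arrays, where control replicate 2 was lowest. The difference was 6.05 ± 0.27 log2 (SE; limma adjusted p = 3.54e-09). The row stands next to the moved place of Jchain, the gene of the joining chain that links IgM into pentamers.

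Row 20861 (17361041) combined a large difference with a small spread. It read 9.76, 9.78 and 9.88 in control and 10.004, 10.009 and 9.967 in c-myb h/h IgM+CD138+ cells, against 4.42, 4.23 and 3.94 in control and 4.24, 4.67 and 4.06 in c-myb h/h B220+CD23+ arrays. The IgM+CD138+ arrays of both genotypes were almost level. No array overlapped, which the rule that picked the row required. The difference was 5.64 ± 0.11 log2 (SE; limma adjusted p = 1.07e-11). The B220+CD23-IgM+ arrays, from 5.33 to 6.39, were above every B220+CD23+ array and below every IgM+CD138+ array.

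The other 7 of the 10 largest higher rows without overlap lay inside 3 blocks described next. They were rows 12754, 12686, 12722, 12693 and 12683 in block A, row 30245 in block B and row 31159 in block C, with differences from 5.42 to 5.83 log2.

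**Figure D2:**
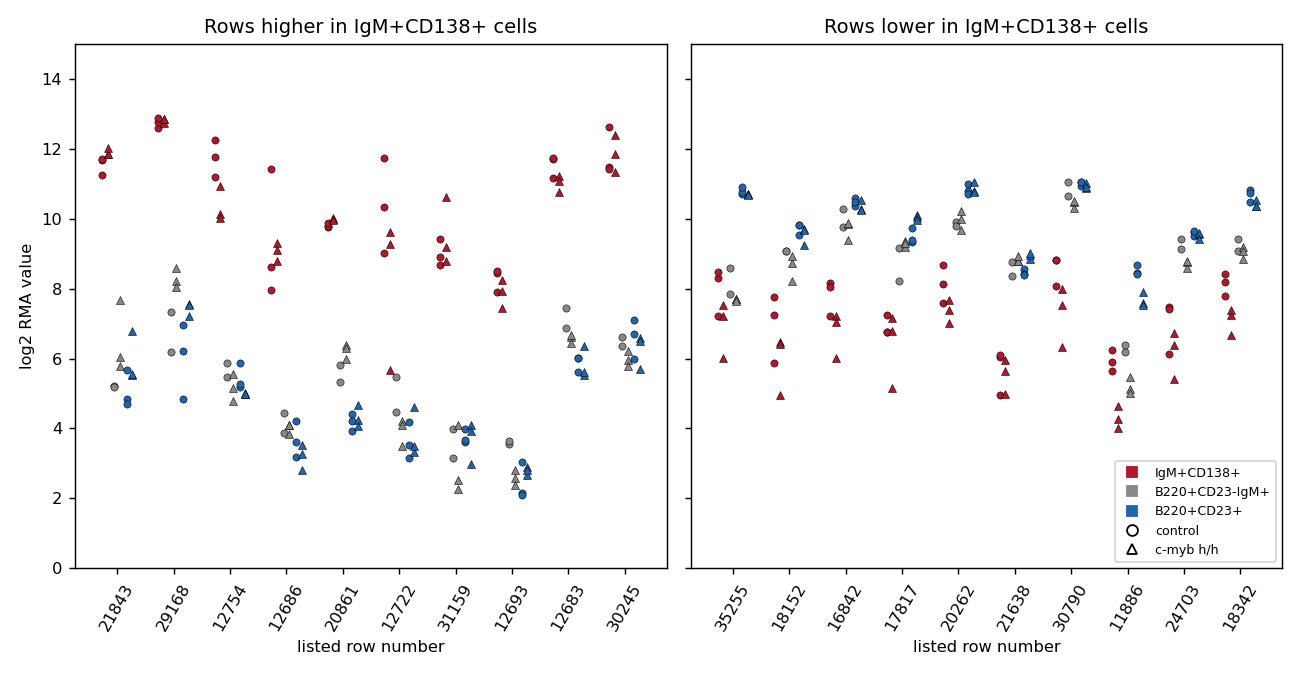
Log2 RMA values of every array at the 10 largest higher rows (left) and the 10 largest lower rows (right) without overlap, by listed row number; colours give the cell population and shapes the genotype. B220+CD23-IgM+ arrays lie nearer to the B220+CD23+ arrays at most rows. At rows 35255 and 11886 they lie near the IgM+CD138+ arrays, and at row 18342 about midway.

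Large increases stood side by side in 3 blocks of the list. Blocks were drawn in control mice alone, as runs of at least 8 called rows past 4-fold with at most 10 tested rows between neighbours, and then read in c-myb h/h mice. The same rule found no block of lower rows. In c-myb h/h mice 19% of tested rows were called higher and 2.41% higher by 4-fold. In control mice, which drew the blocks, the shares were 18.4% and 2.53%. The 3 blocks hold 212 of the tested rows (1.11%), with 178 of the 470 rows higher by 4-fold (37.9%) and 54 of the 80 rows higher by 16-fold (67.5%). The control arrays that drew the blocks also entered the fit behind these counts, so the concentration follows in part from the drawing rule.

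Block A ran from row 12622 to row 12759 and had 114 tested rows, of which 95 formed the run. Their median difference was 3.55 log2 in control mice, which defined it, and 3.40 in c-myb h/h mice, where 91 of the 95 were called higher and 88 passed 4-fold. Averaged over the run, control IgM+CD138+ arrays read 11.21 ± 0.13 and c-myb h/h IgM+CD138+ arrays 10.99 ± 0.12 (SD, n = 3 each). B220+CD23+ arrays read 7.50 ± 0.20 in control mice and 7.57 ± 0.09 in c-myb h/h animals (SD, n = 3 each). B220+CD23-IgM+ arrays stood a little above these, from 7.72 to 7.98. Names moved to this stretch include 14 rows with a single gene symbol, and 14 of them are immunoglobulin heavy chain names, a cluster on mouse chromosome 12. With names as listed, 4 heavy chain names fall in the block.

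Block B ran from row 30214 to row 30257, with 38 tested rows and 32 in the run. The median difference of the run was 3.56 log2 in control mice and 3.39 in c-myb h/h animals, where 28 of the 32 were called and 28 passed 4-fold. Control IgM+CD138+ arrays averaged 10.88 ± 0.03 and c-myb h/h IgM+CD138+ arrays 10.34 ± 0.31 (SD, n = 3 each). Each of these c-myb h/h arrays, from 10.14 to 10.69, lay below each control array, from 10.85 to 10.90. The level in B220+CD23+ arrays was 7.26 ± 0.17 in control mice and 7.12 ± 0.08 in c-myb h/h animals (SD, n = 3 each). The 3 single names moved here are all immunoglobulin kappa chain names.

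Block C, from row 31098 to row 31165, had 60 tested rows and 51 in its run. Median differences were 3.66 log2 in control mice and 3.74 in c-myb h/h animals, where 49 of the 51 were called and 48 passed 4-fold. Its level was 11.37 ± 0.16 for control and 11.24 ± 0.25 for c-myb h/h IgM+CD138+ cells, against 7.62 ± 0.15 and 7.55 ± 0.13 in B220+CD23+ cells (SD, n = 3 each). Of 13 single names moved here, 12 are kappa chain names, and all 13 lie on mouse chromosome 6, where the kappa cluster is. With names as listed, blocks B and C hold 0 immunoglobulin names. The displacement of the alignment was 85 rows at block A, 267 at block B and 277 at block C. No block row passed the test of whether the population difference differed between genotypes. The lowest adjusted p for that interaction was 0.336 in block A and 0.416 in blocks B and C (limma). Its unadjusted p was under 0.05 at 19 of 114, 5 of 38 and 6 of 60 tested rows of blocks A, B and C, against 1230 of all 19029.

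**Figure D3:**
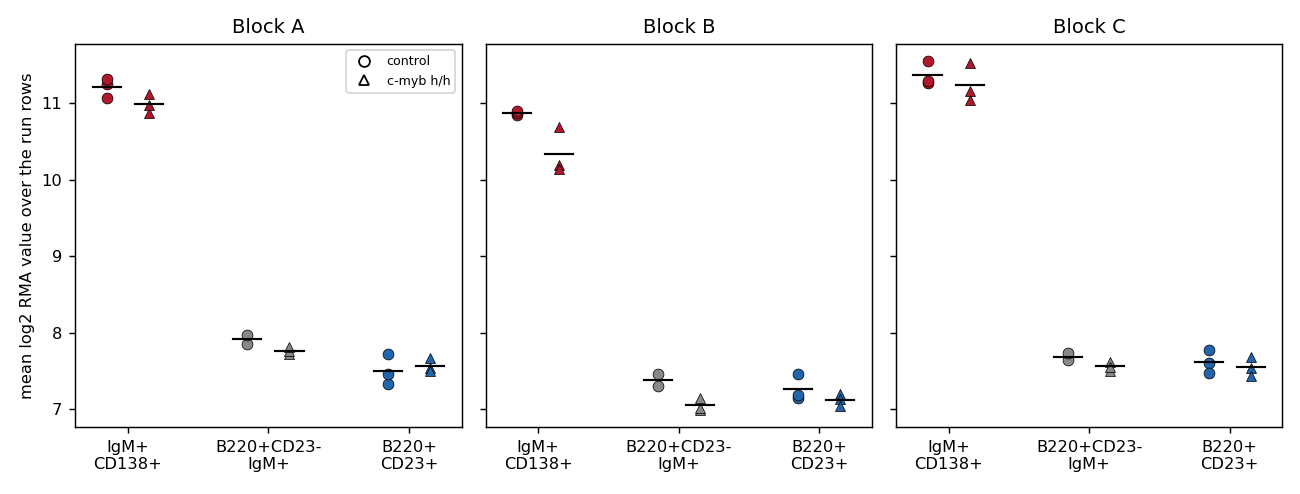
Mean log2 RMA value over the run rows of blocks A, B and C (vertical axis, not starting at 0) in each of the 17 arrays, by population; circles are control mice, triangles c-myb h/h mice and bars group means. In each block all 6 IgM+CD138+ arrays lie above 10, and all other arrays below 8.

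Single rows of the blocks varied between mice. Among rows past 4-fold in block A, the SD over the 3 control IgM+CD138+ mice was above 1 log2 at 9 of 93 rows (9.68%) and over the 3 c-myb h/h mice at 16 of 93 (17.2%). In block B the counts were 4 and 9 of 33, and in block C 7 and 7 of 52. Outside the blocks, 5 of 292 rows past 4-fold had such a spread in control IgM+CD138+ cells and 0 in c-myb h/h cells. In B220+CD23+ cells the counts inside the blocks were 3 and 1 of 93 in block A, and 0 in blocks B and C in both genotypes. The levels of these rows differ between the populations, and whether the spread follows the level was not tested.

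The widest ranges show this pattern mouse by mouse; these rows were picked after their values were seen. Row 30217 in block B read 11.03, 3.98 and 8.55 in control IgM+CD138+ mice and 3.76, 3.51 and 6.80 in c-myb h/h mice, with B220+CD23+ arrays between 2.90 and 3.83. Control replicate 1 was high, while control replicate 2 and c-myb h/h replicates 1 and 2 were near the B220+CD23+ level. Row 12652 in block A read 5.05, 7.29 and 7.99 in control and 5.16, 11.16 and 6.64 in c-myb h/h IgM+CD138+ mice, with c-myb h/h replicate 2 highest. Row 12722, also in block A and among the 10 largest, read 9.02, 11.74 and 10.33 in control and 5.66, 9.61 and 9.28 in c-myb h/h IgM+CD138+ mice, against 3.15 to 4.60 in B220+CD23+ arrays. Here c-myb h/h replicate 1 was the low one. The difference at row 12722 was 6.75 in control mice and 4.37 in c-myb h/h animals, an interaction of -2.38 ± 1.30 log2 (SE; limma adjusted p = 0.823).

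At other block rows, picked for their large differences, the 2 populations stood apart in every mouse. Row 12754 (17284426) read 11.76, 12.26 and 11.18 in control and 10.15, 10.01 and 10.93 in c-myb h/h IgM+CD138+ cells, against 5.88, 5.19 and 5.27 in control and 4.99, 5.01 and 4.98 in c-myb h/h B220+CD23+ arrays. Control IgM+CD138+ arrays were the higher ones, and the populations were well apart in each genotype. The difference was 5.83 ± 0.20 log2 (SE; limma adjusted p = 5.36e-10). In block B, row 30245 (17457379) read 11.48, 11.41 and 12.63 in control and 11.84, 11.35 and 12.38 in c-myb h/h IgM+CD138+ cells, and 5.71 to 7.09 in B220+CD23+ cells, a difference of 5.42 ± 0.27 log2 (SE; limma adjusted p = 1.14e-08). In block C, row 31102 (17464848) read 9.43, 9.67 and 10.51 in control and 9.30, 9.88 and 10.06 in c-myb h/h IgM+CD138+ cells, and 3.73 to 5.19 in B220+CD23+ cells, a difference of 5.39 ± 0.26 log2 (SE; limma adjusted p = 6.43e-09). Rows 12754 and 30245 were picked among rows without overlap, so its absence there follows from that choice. Row 31102, picked by size within its block, had no overlap either. At row 30245 replicate 3 was the highest IgM+CD138+ array in each genotype, and at row 31102 the control B220+CD23+ arrays had the widest range of any block C row past 4-fold in that group, 1.46 log2.

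At 2-fold in place of 4-fold, the same rule gave 17 runs, 13 higher and 4 lower. One of the higher runs, rows 12852 to 12911, stands where 28 of 54 names are of histone cluster 1, genes made mainly in dividing cells. Its 8 run rows averaged 7.02 ± 0.10 for control and 6.86 ± 0.28 for c-myb h/h IgM+CD138+ cells, and 5.42 ± 0.19 and 5.201 ± 0.203 in B220+CD23+ cells (SD, n = 3 each). B220+CD23-IgM+ arrays, from 5.54 to 6.21, lay between, with a slight overlap with B220+CD23+ cells. Rows 35974 to 35982 formed an unbroken run in which 9 of 9 tested rows were higher, by 1.48 to 1.89 log2 in control mice and 1.53 to 2.39 in c-myb h/h animals. No name moves to that run.

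Among the lower runs, rows 18144 to 18160 stand where 8 of 14 names are of MHC class II, the proteins with which B cells present antigen to helper T cells. The 9 run rows averaged 8.62 ± 0.39 for control and 8.26 ± 0.34 for c-myb h/h IgM+CD138+ cells, against 10.37 ± 0.04 and 10.36 ± 0.04 in B220+CD23+ cells (SD, n = 3 each). IgM+CD138+ arrays ranged from 7.91 to 8.94, while the B220+CD23+ arrays were nearly level. B220+CD23-IgM+ arrays, from 10.02 to 10.21, were close to B220+CD23+ cells. All 9 run rows were called lower in c-myb h/h mice as well, where 22.8% of tested rows were (0.851% by 4-fold; in control mice 22.9% and 0.515%), with a median of -1.51 in control mice and -1.90 in c-myb h/h animals. A further lower run, rows 7243 to 7289, had 10 run rows of 34 tested, with a median of -1.38 in control mice and -1.43 in c-myb h/h animals, and 10 of the 37 names moved there are of the interferon-inducible Ifi200 family.

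Marker lists were read beside the labelled cell types. They were chosen with earlier results of these data known, so they are no independent check. For 12 of 15 plasma cell genes, a row at least 4-fold higher in IgM+CD138+ cells stood within 2 valued rows of the moved place, against 4.58% of all names. For 9 of 18 B cell genes, a row at least 4-fold lower did so, against 1.81% of all names. At the moved places themselves, 15 plasma cell rows were tested and 9 were called higher and 1 lower, with a median of 0.81 log2. Of 17 B cell rows tested, 1 was called higher and 15 lower, with a median of -1.58. Over all names 24% of rows at moved places were called higher and 31.8% lower, with a median of -0.07. The count for plasma cell genes fell to 4 when only the row at the place itself was read, and both counts were 0 with names as listed. The row called for a gene here is the one with the difference furthest from 0 among 5, so its value describes a neighbourhood and not the gene.

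The sort markers were read first, and since they set the gates, they are no finding. Row 11512, next to the moved place of Sdc1, read 9.95, 10.05 and 10.15 in control and 10.37, 10.27 and 10.16 in c-myb h/h IgM+CD138+ cells. In B220+CD23+ cells it read 5.73, 6.16 and 5.92 in control mice and 5.40, 5.56 and 5.37 in c-myb h/h animals. The gap of 4.47 ± 0.08 log2 (SE; limma adjusted p = 1.07e-11) had no overlap, and B220+CD23-IgM+ arrays (5.33 to 5.63) lay with B220+CD23+ cells. A further row listed for Sdc1 moves to a place where the neighbouring row 39667 was lower, at -0.92 log2.

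Row 35255 (17503389), at the moved place of Fcer2a, had the most negative difference of all tested rows. It read 10.70, 10.76 and 10.91 in control and 10.72, 10.70 and 10.68 in c-myb h/h B220+CD23+ arrays, and 7.21, 8.31 and 8.49 in control and 6.004, 7.531 and 7.208 in c-myb h/h IgM+CD138+ cells. B220+CD23+ arrays were level, and IgM+CD138+ replicate 1 was the lowest of its group in each genotype. The difference was -3.29 ± 0.26 log2 (SE; limma adjusted p = 5.54e-07). In B220+CD23-IgM+ cells, gated against CD23, the row read 7.84 and 8.59 in control mice and 7.70, 7.72 and 7.64 in c-myb h/h animals, far below the CD23-positive arrays. Near the place of Ptprc, row 7039 was higher in IgM+CD138+ cells by 1.41 log2; no reading of B220 is made from it. All 7 names of Ighm, the heavy chain gene of IgM, move into block A.

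Around the regulators of the plasma cell state, differences were large and even across mice. Row 8398, at the place of Prdm1, read 9.47, 9.79 and 9.07 in control and 9.259, 8.995 and 9.693 in c-myb h/h IgM+CD138+ cells, and from 5.26 to 5.88 in B220+CD23+ cells, a difference of 3.77 log2. Row 8978, next to the place of Xbp1, read 12.08, 11.83 and 11.89 in control and 12.04, 11.88 and 11.98 in c-myb h/h IgM+CD138+ cells, and from 8.63 to 8.88 in B220+CD23+ cells, a difference of 3.20 log2. Both were without overlap, and their IgM+CD138+ arrays did not separate by genotype. Row 16768, at the place of Tnfrsf17, the gene of the survival receptor BCMA, differed by 4.92 log2. Row 13222, at the place of Ell2, an elongation factor used in making secreted heavy chain, differed by 2.73 log2.

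Rows around genes of protein folding and export in the endoplasmic reticulum were higher by varying amounts. The largest was row 7713, next to the place of Derl3 (removal of misfolded proteins), at 4.59 log2. Row 16614 next to Fkbp11 (a folding enzyme) differed by 4.36, row 15945 next to Creld2 by 3.89, row 17360 at Sdf2l1 by 3.65 and row 19886 next to Mzb1 (a chaperone of IgM assembly) by 3.00. Rows around the more widely used genes moved less. Row 8680 at Hsp90b1 differed by 1.94, row 21565 at Hspa5 (the chaperone BiP) by 1.49 and row 19668 next to Sec11c (signal peptide cleavage) by 1.34. At row 19886, B220+CD23-IgM+ arrays, from 10.002 to 10.655, stood well above B220+CD23+ arrays, from 8.62 to 9.15, though still below IgM+CD138+ arrays.

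Around the B cell genes the differences were negative and smaller. Row 26961, 2 rows from the place of Pax5, the factor that holds B cell identity, read 8.72, 9.51 and 9.79 in control and 7.74, 9.10 and 8.47 in c-myb h/h IgM+CD138+ cells, against 11.50 to 11.72 in B220+CD23+ cells. Row 9163, at the place of Ebf1, another B lineage factor, read 8.22, 9.01 and 9.41 in control and 7.222, 8.503 and 8.482 in c-myb h/h IgM+CD138+ cells, against 10.84 to 11.09 in B220+CD23+ cells. In both, replicate 1 of each genotype was the lowest, and the populations did not overlap. The differences were -2.73 and -2.49 log2.

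Row 25740 near Bach2 (a repressor of plasma cell differentiation) differed by -2.79, row 16758 at Ciita (the activator of MHC class II genes) by -2.79 and row 33487 near Spib by -2.73. Row 37147 at Cxcr5 (the receptor that leads B cells into follicles) differed by -2.53, row 7368 at Cr2 (complement receptor CD21) by -2.53 and row 20850 at Ms4a1 (CD20) by -2.04. Row 11263 at Cd79b, a signalling chain of the B cell receptor, differed by only -0.92. The exceptions were row 11079, next to the place of Ccr7, at 2.75 and row 33379, next to the place of Cd22, at 1.28. Row 11079 also lies within 3 rows of the place of Top2a, a gene of dividing cells, whose own neighbouring row 11077 was lower at -1.94. Names and rows so close together cannot be told apart here.

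Rows around genes of dividing cells were higher in part. At the moved places of the proliferation list, 7 of 10 tested rows were called higher and 1 lower, against 24% and 31.8% of rows at the places of all names, with a median of 1.16 log2. Lower rows stood near some of these names. The row furthest from 0 was row 32727 at -2.05 log2 for Plk1, row 39669 at -2.20 for one of the Rrm2 rows and row 11077 at -1.94 for Top2a, while it was row 11577 at 1.79 for the other Rrm2 row. A row lower by 4-fold stood within 2 rows of 2 names of the list, and a row higher by 4-fold near 1. Over all names these shares were 1.81% and 4.58%. Row 34310, at the place of Mki67, read 10.27, 10.15 and 9.89 in control and 10.28, 9.66 and 9.30 in c-myb h/h IgM+CD138+ cells, against 7.69, 6.13 and 6.39 in control and 8.23, 7.76 and 7.69 in c-myb h/h B220+CD23+ arrays. The populations did not overlap, and the gap was 3.36 log2 in control mice and 1.86 in c-myb h/h animals. B220+CD23-IgM+ arrays at that row, from 7.86 to 9.42, reached the lowest IgM+CD138+ array. Of 17 tested rows at places of histone cluster 1, 13 were called higher and 0 lower, with a median of 0.88, read against the same shares.

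Among other clustered families, places of Gimap and MHC class II names leaned to lower rows, and the rest showed no clear direction. At places of the Gimap family, small GTPases of lymphocyte survival, 9 of 9 tested rows were called lower, against 31.8% over all names, with a median of -1.39. Rows higher by 4-fold nevertheless stood within 2 rows of 3 of the 8 Gimap genes, against 4.58% of all names. At the place itself this held for 0, and neighbouring names can share such a row. At places of MHC class II names 6 of 10 rows were called lower and 0 higher, with a median of -0.53, and a row at least 2-fold lower stood within 2 rows of all 10 names, against 12% of all names. At places of the Ms4a family, which lies around the CD20 gene, 3 of 13 tested rows were called higher and 4 lower, with a median of -0.11. A row at least 4-fold lower stood within 2 rows of 12 of the 20 Ms4a names, against 1.81% of all names, but at the place itself for only 2, and neighbouring names share such rows. Ly6 places held 4 rows called higher and 4 lower of 14 tested (median 0.01), and Klr places 2 higher and 1 lower of 7 (median 0.26). Over all names 24% of rows at moved places were called higher and 31.8% lower. The counts at Ms4a, Ly6 and Klr places were near those shares.

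**Figure D4:**
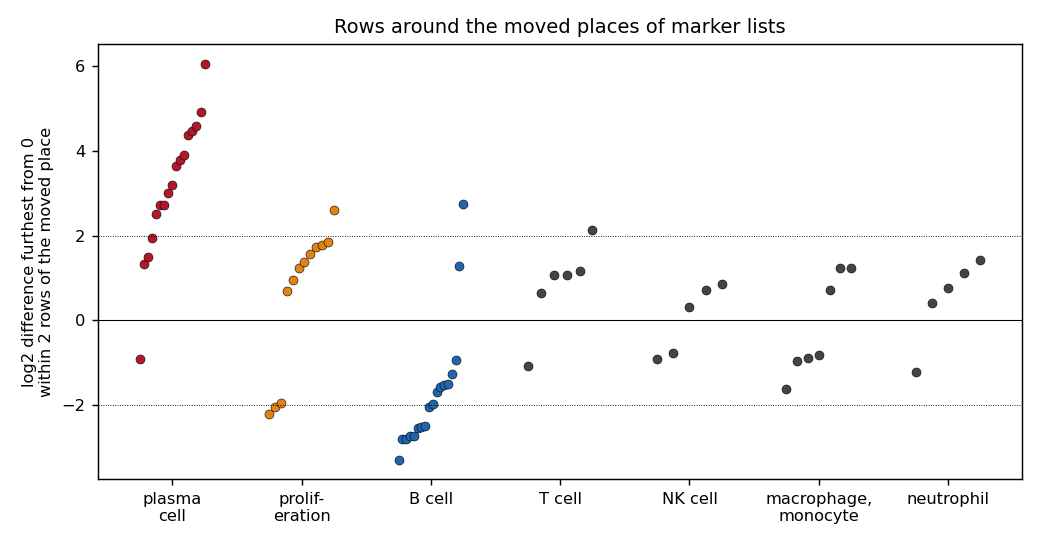
For each name of the marker lists, the log2 difference (IgM+CD138+ minus B220+CD23+, both genotypes) furthest from 0 within 2 valued rows of its moved place; points are names, sorted within a list, and dotted lines mark 4-fold. Plasma cell names reach 6.05 and B cell names -3.29. Names of other cell types reach 2.14 (Cd4 of the T cell list), past the 4-fold line and above some plasma cell names.

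Markers of other spleen cells were read at their moved places as well, where 24% of the rows of all names were called higher and 31.8% lower. Of 6 T cell rows, 4 were called higher in IgM+CD138+ cells and 0 lower, with a median of 0.60 log2. The list's mean level per array ran from 6.17 to 6.99 in IgM+CD138+ cells and from 5.79 to 6.28 in B220+CD23+ cells. A row at least 2-fold higher stood within 2 rows of 4 of the 6 T cell names, against 16.2% of all names. A row at least 2-fold lower stood near 1, against 12% of all names. For Cd4 the row furthest from 0 was row 31481, at 2.14 log2. Of 4 NK cell rows tested, 2 were called higher and 0 lower. Mean levels were 5.02 to 5.28 in control and 5.64 to 6.15 in c-myb h/h IgM+CD138+ cells, and 4.69 to 5.18 and 5.40 to 5.53 in B220+CD23+ cells. Of 6 macrophage and monocyte rows, 2 were called higher and 1 lower, counts near those shares. Mean levels were 6.15 to 6.48 and 6.67 to 6.92 in IgM+CD138+ cells, and 5.96 to 6.34 and 6.49 to 6.66 in B220+CD23+ cells, in the same order. In these 2 lists c-myb h/h arrays lay above control arrays in both populations, while in the T cell and neutrophil lists the genotypes overlapped. The 1 row for red cell precursors, at Klf1, was called higher by 0.36 log2. Of 4 neutrophil rows, 0 were called, and the list's mean level ranged widely between arrays, from 4.83 to 8.59 in IgM+CD138+ and from 4.97 to 8.85 in B220+CD23+ cells. Levels on this log2 scale have no true zero, so no marker can be called absent. The part of these cells in the differences was not tested.

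Among the 124 rows lower by 4-fold, levels in B220+CD23-IgM+ cells lay nearer to those of B220+CD23+ cells. The median level of these rows was 7.05 log2 in IgM+CD138+, 9.54 in B220+CD23+ and 9.03 in B220+CD23-IgM+ cells, and at 113 of the 124 the last 2 differed by less than 1 log2, a smaller share than the 18845 of 19029 over all tested rows. Rows higher by 4-fold outside the blocks had median levels of 8.70, 5.82 and 6.30, and rows higher by 4-fold inside the blocks 11.55, 7.88 and 7.99, in the same order. B220+CD23-IgM+ cells were nearer to B220+CD23+ than to IgM+CD138+ cells at 121 of 124, 279 of 292 and 177 of 178 of these rows, in the order lower, higher outside the blocks and higher inside them, against 13862 of 19029 over all tested rows.

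The 2 exceptions among the largest lower rows were row 35255, given above, and row 11886 (17277060). The latter read 5.63, 5.90 and 6.25 in control and 4.01, 4.28 and 4.65 in c-myb h/h IgM+CD138+ cells, against 8.44, 8.41 and 8.67 in control and 7.59, 7.89 and 7.52 in c-myb h/h B220+CD23+ arrays. B220+CD23-IgM+ arrays read 6.19 and 6.40 in control mice and 5.474, 5.121 and 5.0003 in c-myb h/h animals. Control arrays were above c-myb h/h arrays in each of the 3 populations, with no overlap. The population difference was -2.97 ± 0.13 log2 (SE; limma adjusted p = 3.86e-09).

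Row 18152 (17334782), inside the run with MHC class II names, was the second lowest. It read 5.87, 7.24 and 7.76 in control and 4.95, 6.46 and 6.40 in c-myb h/h IgM+CD138+ cells, against 9.25 to 9.81 in B220+CD23+ and 8.22 to 9.09 in B220+CD23-IgM+ cells. Replicate 1 was again lowest in both genotypes. The difference was -3.19 ± 0.32 log2 (SE; limma adjusted p = 4.90e-06). The other 7 of the 10 largest lower rows, 16842, 17817, 20262, 21638, 30790, 24703 and 18342, had differences from -3.14 to -2.93. At row 18342, B220+CD23-IgM+ cells averaged 9.13, about midway between 7.62 in IgM+CD138+ and 10.55 in B220+CD23+ cells.

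The population difference was broad in each genotype. In control mice alone 7852 rows passed (41.3%) and in c-myb h/h mice 7951 (41.8%; limma, Benjamini-Hochberg adjusted p under 0.05). The genotypes shared no mice, and 6140 rows passed in both with the same sign, 9 with opposite signs. A further 1703 passed in control mice only and 1802 in c-myb h/h mice only, which does not by itself show a difference between genotypes. The test of that difference, the interaction, called 0 rows (limma), or 1 row with mouse as a fixed term, with 1230 at an unadjusted p under 0.05 and a lowest adjusted p of 0.0876 without that term.

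**Figure D5:**
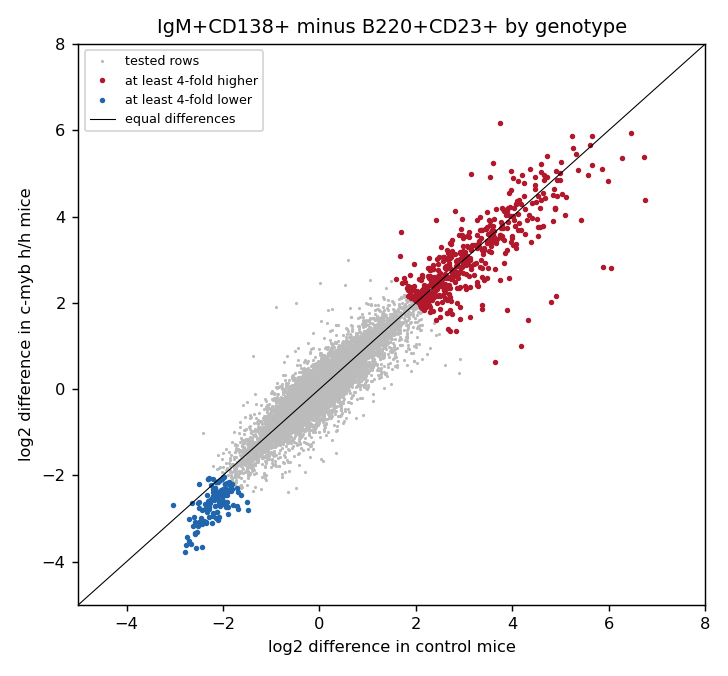
Log2 difference between IgM+CD138+ and B220+CD23+ cells in control mice (horizontal axis) and c-myb h/h mice (vertical axis) at 19029 tested rows, with rows past 4-fold in both genotypes together in colour and the line of equal differences. Most rows lower by 4-fold lie below the line, where the fall was larger in c-myb h/h mice.

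Over all tested rows, whether higher or lower in IgM+CD138+ cells, the interaction was below 0 at 48.5%. At the rows lower by 4-fold it was below 0, meaning a larger fall in c-myb h/h mice, at 117 of 124, with a median of -0.41 log2. No such row passed the test of the interaction; 12 had an unadjusted p under 0.05 and the lowest adjusted p was 0.507 (limma). The size of the fall differed from mouse to mouse. The median fall over the 124 rows was -2.64, -2.10 and -1.73 log2 in control mice 1 to 3 and -3.03, -2.26 and -2.37 in c-myb h/h mice 1 to 3. Control mouse 1 fell further than c-myb h/h mice 2 and 3, so the genotypes overlapped when mice are the unit. The spread lay in the IgM+CD138+ arrays, whose median level at these rows ran from 6.76 to 7.67 in control mice and from 6.24 to 7.19 in c-myb h/h animals. The B220+CD23+ arrays ran from 9.49 to 9.52 and from 9.49 to 9.56. At the 292 rows higher by 4-fold outside the blocks, the medians per mouse were closer, from 2.50 to 2.65 in control mice and from 2.52 to 2.66 in c-myb h/h animals.

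The 3 rows with the lowest p for the interaction lay outside the blocks. Row 24129 (17394182) read 5.50, 5.12 and 5.14 in control IgM+CD138+ and 6.92, 6.23 and 6.73 in control B220+CD23+ cells, but 6.78, 7.03 and 6.58 in c-myb h/h IgM+CD138+ and 5.98, 6.26 and 5.84 in c-myb h/h B220+CD23+ arrays. IgM+CD138+ cells were lower in control mice and higher in c-myb h/h animals, without overlap in either. The differences were -1.37 and 0.77 log2, and the interaction was 2.15 log2 (limma adjusted p = 0.0876), short of the threshold. It passed under 4 of the alternative settings, such as a fit with mouse as a fixed term (limma adjusted p = 0.0256). Row 37213 differed by 0.55 in control mice and -0.68 in c-myb h/h animals (interaction limma adjusted p = 0.220). Row 12565 differed by 0.35 and -1.48 (interaction limma adjusted p = 0.220).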

How the data were processed

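RNA of sorted spleen cells was hybridised to 1 array per sample. Per the submitters' processing notes, RMA (version not given) produced the deposited log2 values. No source used here says which arrays were normalized as one set. Of 41801 listed rows, 8474 were blank in every array and 33327 held values in all 17 arrays, and array medians ran from 5.13 to 5.21. Precision is limited by how few arrays there are. The p-values rest on the spread between arrays within each genotype and population, and not on how the population difference varied between mice.

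Rows above the array median in at least 2 of the 12 arrays were tested in R 4.3.3 with limma 3.58.1 (functions lmFit, eBayes; 2-sided, 8 residual degrees of freedom), with 1 mean per genotype and population. P-values were adjusted by Benjamini-Hochberg over 19029 rows. Rows named are the 10 largest called differences in each direction without overlap, the 2 largest per block and the 3 lowest interaction p-values; rows near moved names and rows of widest range were added. On simulated data over 19029 rows, the both-genotypes fit recovered 92% of 100 rows changed 2-fold and 99% of 100 changed 4-fold, with 11 false calls. The simulation changed only those rows and gave each array independent noise, whereas 55.2% of rows were called in the real arrays. Its false calls are thus no estimate of those in the comparison.

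Within a genotype, equal numbers in the labels' titles were read as 1 mouse. Their deviations from the group means correlated at 0.026 to 0.125, and the mouse was left out of the fit, with it as an alternative.

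The platform annotation gives 1 symbol for 23365 valued rows, several for 1774 and none for 8188. The stepwise alignment (202 steps, 368 rows at the end of the list) was chosen after the data were seen. Other starts and step chances stayed within 3 rows of it at 99.3% to 99.7% of rows and departed by at most 6. Rows and places were counted over valued rows. The members and lists were chosen with earlier results of these data known. Alternatives covered the filter, the scaling, the variance model, array weights, the mouse block, a fold threshold, the block rule, the removal of each array and the placing of names. The plots used matplotlib 3.10.9.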

Additional observations from a re-analysis of the deposited data

Results flagged for a closer look

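At 2 rows the population difference had opposite signs in the genotypes in every mouse, 3 control and 3 c-myb h/h. At row 24129 the interaction was 2.15 log2, IgM+CD138+ cells being lower than B220+CD23+ cells in control and higher in c-myb h/h mice (limma adjusted p = 0.0876). At row 37213 it was -1.23 log2, in the opposite sense (limma adjusted p = 0.220). Neither passed the adjusted test, and both were picked from all tested rows for their low interaction p.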

How the results depend on the processing

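All 22 rows named for the population difference kept their sign and stayed past the threshold in every alternative fit. Over all rows and fits together this made 528 values (highest limma adjusted p 0.000517). Counts of called rows stayed within 1.5 times of 10512, 7852 (control) and 7951 (c-myb h/h) except when a 1.5-fold change was required. That left 2505, 1889 and 2081 rows in the same order, with 59.3%, 63.7% and 59.97% of them higher in IgM+CD138+ cells, against 42.8% of the calls for both genotypes without it. Leaving out each array gave 9668 to 10496 for both genotypes, 6467 to 7969 in control, 6649 to 8328 in c-myb h/h mice and 0 to 1 for the interaction. The interaction count of 1 came without control IgM+CD138+ replicate 2 or 3, without IgM+CD138+ replicate 1 of c-myb h/h mice, or without control B220+CD23+ replicate 2. With mouse as a replicate block the count for both genotypes was 10104 (fixed) or 10594 (random), and the interaction called 1 row with the fixed block, while the block moved no other count by over 1.5 times. With array weights the interaction called 1 row, and with trend and robust moderation 2. Row 24129 passed with trend and robust moderation (limma adjusted p = 0.0339), array weights (0.0494), the fixed block (0.0256) and without control B220+CD23+ replicate 2 (0.0215). At 2-fold the block rule gave 17 runs in place of 3. Plasma cell genes near a 4-fold higher row numbered 4 at the place itself, 0 with names as listed and 5 with evenly growing displacement and 5 rows either side, in place of 12. B cell genes near a 4-fold lower row numbered 0 with names as listed, in place of 9. The cause of these changes was not tested. Differences at dim rows are limited by the background, since no background values were used here.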
